A study of Mus musculus with 15 samples.

Results

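The genes described here are 9 that mark the club cells and other secretory cells lining the mouse airway: Scgb1a1, Scgb3a1, Scgb3a2, Bpifa1, Aldh1a1, Aldh1a7, Cbr2, Reg3g and Muc5b. They were taken by gene symbol from the annotation of the array, and 9 of 9 were measured, each by exactly 1 probe set, out of 45037 probe sets and 18193 genes tested. The arrays came from 3 groups of mice in a model of small cell lung cancer. The first group was 3 lung tumours of mice with Rb, p53 and p130 all deleted (Rb/p53/p130 tumours), collected 6 months after an adenovirus carrying Cre recombinase had been given through the nose. The second was 10 lung tumours of mice with Rb and p53 deleted by the same route (Rb/p53 tumours), kept for 8 to 12 months. The third was 2 whole lungs of adult wild-type mice with no tumour (normal lung). The labels name no promoter driving Cre and do not say whether any tumours shared a mouse, and the spread that p-values measure is that between samples, which may be technical. Genotype and time after infection differed together between the tumour groups and cannot be told apart.

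Club cells are the dome-shaped secretory cells of the small airways. They release secretoglobins, small proteins that are the most abundant secreted products of the bronchioles, and they are rich in enzymes that oxidise, reduce and conjugate foreign compounds and aldehydes. Neighbouring secretory cells add mucins and antibacterial proteins to the airway fluid, and club cells can divide to replace damaged airway cells. Levels are given as RMA values on the log2 scale, where 1 unit is a doubling of signal, and are compared between arrays for 1 gene, not between genes. In pieces of tissue, fewer cells of a type and less RNA per cell cannot be told apart.

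The tissue labels were set against marker lists. Of 13 neuroendocrine genes, 13 were higher in both tumour groups than in normal lung by limma with Benjamini-Hochberg adjustment over all probe sets, and their mean level was 11.3 to 11.7 in Rb/p53/p130 tumours, 11.1 to 12.0 in Rb/p53 tumours and 5.33 to 5.79 in normal lung. The mean level of 15 alveolar type 2 genes was 10.4 to 10.8 in Rb/p53/p130 tumours and 9.12 to 11.7 in Rb/p53 tumours, against 12.7 to 13.1 in normal lung. The mean level of 8 basal airway genes was 6.91 to 7.02 in Rb/p53/p130 tumours and 6.37 to 7.49 in Rb/p53 tumours, against 7.90 to 8.11 in normal lung. By limma 3 of these 8, Pdpn, Icam1 and Snai2, were called lower than lung in each tumour group and 5 were not called. Pdpn is also in the alveolar type 1 list. The median difference of the 8 genes from lung was only -0.25 in Rb/p53/p130 tumours and -0.18 in Rb/p53 tumours. Of the defining basal genes, Trp63 and Krt14 did not exceed 5.05 in 2 of 2 lungs. Krt5, another defining basal gene, and the rest of the other 6 exceeded it in both. This level, taken as a floor, is the highest of the 15 arrays' lower quartiles. The 3' minus 5' difference of the Gapdh control probe sets is a sign of how far transcripts were shortened. It was -0.07 to 0.36 in the 13 tumours and 0.72 to 0.88 in the lungs. This measure and tissue therefore cannot be told apart in any comparison with lung. A call lost with this measure as a covariate cannot separate them either. For the actin control probe sets the ranges overlapped, at 0.50 to 1.35 in the tumours and 1.33 to 1.99 in the lungs.

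Scgb1a1, the main club cell secretory protein and the best known secretoglobin, stayed among the brightest signals of every array. It measured 14.46, 14.77 and 15.11 in Rb/p53/p130 tumours. In Rb/p53 tumours it ran from 13.75 through a median of 14.32 to 14.97, and in the lungs it was 15.20 and 15.19. Every tumour lay below both lungs, the closest by 0.08.

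**Figure D1:**
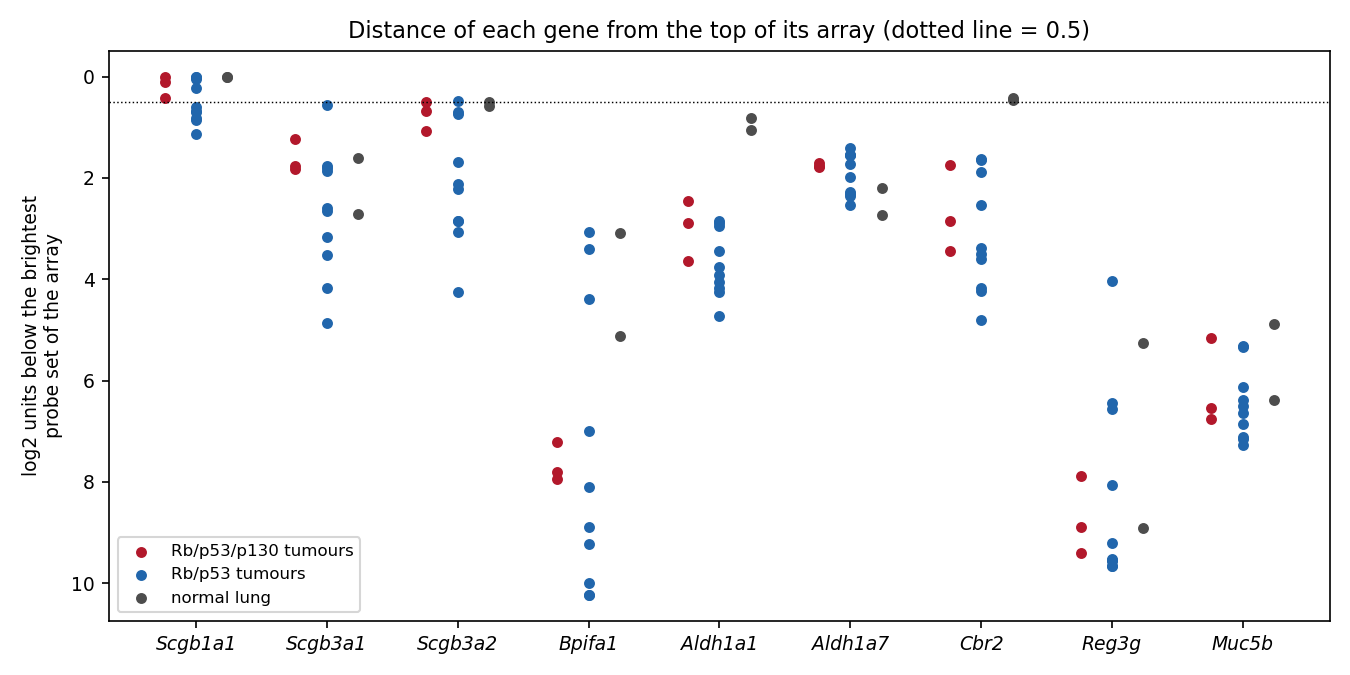
Log2 units between each gene and the brightest probe set of the same array (vertical axis, 0 at the top), 1 point per array, with Rb/p53/p130 tumours, Rb/p53 tumours and normal lung from left to right within each gene; the dotted line marks 0.5. Scgb1a1 is at 0 in both lungs and Cbr2, near the line in both lungs, is at least 1.63 units below the top in every tumour.

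Scgb1a1 was the brightest of all 45037 probe sets in 2 of 2 lungs, in 1 of 3 Rb/p53/p130 tumours and in 1 of 10 Rb/p53 tumours. Its lowest rank from the top was 24 among the Rb/p53/p130 tumours and 175 among the Rb/p53 tumours. It came within 0.5 of the array maximum in 3 of 3 Rb/p53/p130 tumours, 4 of 10 Rb/p53 tumours and 2 of 2 lungs. The deposited values carry no mark of saturation, so whether the top of the scale held down the lung signal was not tested. Fitted in limma, Scgb1a1 was -0.41 ± 0.34 (SE, log2) in Rb/p53/p130 tumours against normal lung (adjusted p = 0.436) and -0.78 ± 0.29 in Rb/p53 tumours against normal lung (adjusted p = 0.0515). The second value lies at the threshold of 0.05: it passed without Rb/p53 tumour 3 (adjusted p = 0.0426), 5 (0.0430), 6 (0.0330) or 10 (0.0309), by limma.

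Scgb3a2, a second secretoglobin of club cells, was 13.82, 14.21 and 14.61 in Rb/p53/p130 tumours. Its Rb/p53 values ran from 10.60 through a median of 12.76 to 14.49, against 14.70 and 14.62 in lung. The 13 tumours again lay below both lungs, but the spread among Rb/p53 tumours, 3.89 log2 units, was wide. That of Scgb1a1 cannot be set beside it, since Scgb1a1 lay near the top of the scale. Scgb3a2 also came near the top, at rank 8 and 13 in the lungs, 7 in Rb/p53/p130 tumour 13 and 15 in Rb/p53 tumour 10. Whether the top of the scale held down these Scgb3a2 signals was not tested. The limma difference of Rb/p53/p130 tumours from lung was -0.44 ± 0.90 (adjusted p = 0.786). That of Rb/p53 tumours from lung was -1.83 ± 0.77 (adjusted p = 0.0841), and without Rb/p53 tumour 10 it was -2.02 (adjusted p = 0.0437). Between tumour genotypes Scgb3a2 was 1.39 ± 0.65 higher in Rb/p53/p130 tumours, which did not pass (p = 0.0508, adjusted p = 0.499 by limma; exact permutation p = 0.0839, two-sided).

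Scgb3a1, another secretoglobin, behaved differently. It measured 13.06, 13.13 and 13.89 in Rb/p53/p130 tumours, and in Rb/p53 tumours it ran from 10.07 through 12.30 to 14.40, against 12.50 and 13.59 in normal lung. The groups overlapped in every pairing: Rb/p53 tumour 10, at 14.40, lay above both lungs, and Rb/p53 tumour 2, at 10.07, far below them. The limma differences were 0.32 ± 0.96 for Rb/p53/p130 tumours against lung (adjusted p = 0.863) and -0.82 ± 0.81 for Rb/p53 tumours against lung (adjusted p = 0.496).

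**Figure D2:**
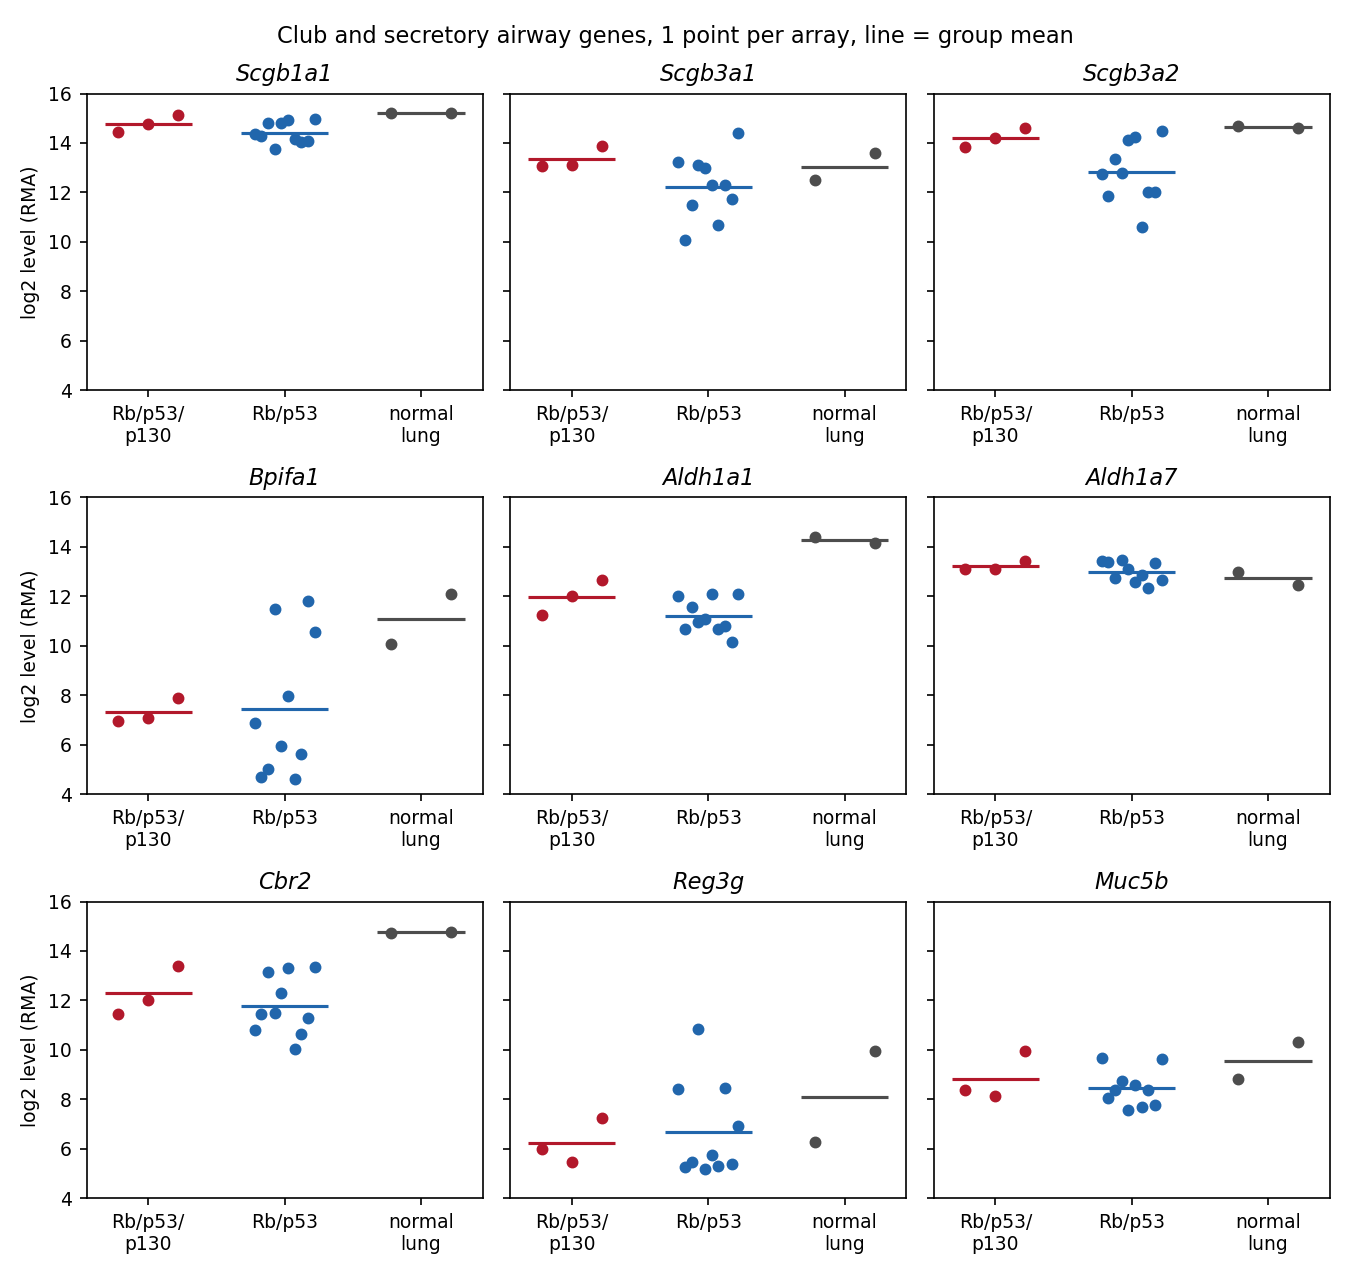
RMA log2 level of each of the 9 genes (vertical axis) in Rb/p53/p130 tumours (3 arrays), Rb/p53 tumours (10 arrays) and normal lung (2 arrays), 1 point per array with a line at the group mean. Aldh1a1 and Cbr2 of all 13 tumours lie below both lungs, and Bpifa1 and Reg3g spread over 7.19 and 5.68 units among Rb/p53 tumours.

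The 2 aldehyde dehydrogenases of the list moved apart. Aldh1a1 oxidises retinaldehyde to retinoic acid as well as other aldehydes, and Aldh1a7 is its close mouse relative, encoded by the next protein-coding gene on chromosome 19. Aldh1a1 measured 11.25, 12.00 and 12.67 in Rb/p53/p130 tumours, and it ran from 10.15 through a median of 11.03 to 12.11 in Rb/p53 tumours, against 14.38 and 14.14 in normal lung. Every tumour lay below both lungs, with 1.48 log2 units between the closest of them. By limma with Benjamini-Hochberg adjustment, Aldh1a1 differed from lung by -2.29 ± 0.56 in Rb/p53/p130 tumours (4.90-fold lower, adjusted p = 0.00702) and by -3.05 ± 0.47 in Rb/p53 tumours (8.25-fold lower, adjusted p = 0.000165). Without normal lung 1 the call in Rb/p53/p130 tumours was lost, at -2.17. With the Gapdh difference as a covariate neither genotype was called, at -1.30 ± 1.22 (limma adjusted p = 0.654) and -2.10 ± 1.14 (limma adjusted p = 0.351). The covariate thus widened the SE from 0.56 and 0.47, as the Gapdh difference separated lung from tumour.

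Aldh1a7 measured 13.13, 13.10 and 13.42 in Rb/p53/p130 tumours and ran from 12.35 through a median of 12.99 to 13.48 in Rb/p53 tumours, against 13.00 and 12.45 in normal lung. The 3 Rb/p53/p130 tumours lay above both lungs and the Rb/p53 tumours straddled them. The differences from lung were 0.49 ± 0.32 and 0.26 ± 0.27, and neither passed (limma adjusted p = 0.313 and 0.514). Within each array, Aldh1a1 minus Aldh1a7 was -1.88, -1.10 and -0.75 in Rb/p53/p130 tumours and -3.19 to -0.49 in Rb/p53 tumours, against 1.38 and 1.69 in lung, a comparison chosen after seeing the data. Its mean differed from lung by -2.78 in Rb/p53/p130 tumours (exact permutation p = 0.2, two-sided, the smallest that 3 against 2 arrays allow) and by -3.31 in Rb/p53 tumours (exact permutation p = 0.0303, the smallest that 10 against 2 allow). As close relatives, the 2 transcripts may hybridise to each other's probes, which was not tested.

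The promoters of this pair are printed because, of the 2 genes, only Aldh1a1 lay below both lungs in every tumour. Both are RefSeq windows of GRCm38.p6 that run from 250 bases before to 50 bases after the gene's start, 5′ to 3′ on the gene's strand, for Aldh1a1 its second annotated start at chr19:20601718-20602017 (plus strand) and for Aldh1a7 chr19:20727507-20727806 (minus strand). Capitals mark the longest run of bases that the windows share.
Aldh1a1: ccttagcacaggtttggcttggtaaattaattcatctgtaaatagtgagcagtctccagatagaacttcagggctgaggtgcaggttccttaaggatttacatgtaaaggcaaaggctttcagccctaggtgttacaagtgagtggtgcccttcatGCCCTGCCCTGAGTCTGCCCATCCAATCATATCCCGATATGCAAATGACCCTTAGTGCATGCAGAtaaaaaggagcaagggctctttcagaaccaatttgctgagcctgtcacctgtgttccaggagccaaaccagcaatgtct
Aldh1a7: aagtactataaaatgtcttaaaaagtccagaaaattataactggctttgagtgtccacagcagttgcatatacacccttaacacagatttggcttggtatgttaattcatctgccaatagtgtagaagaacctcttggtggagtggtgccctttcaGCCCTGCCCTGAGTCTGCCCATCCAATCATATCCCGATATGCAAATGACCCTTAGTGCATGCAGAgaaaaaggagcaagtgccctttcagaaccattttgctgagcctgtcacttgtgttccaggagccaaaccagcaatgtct
Aligned, they were identical at 208 of 225 bases (92.4%), and the shared run is 65 bases long. The first annotated start of Aldh1a1 gave an identity of 65.9% with Aldh1a7 and a longest shared run of 8 bases. The array cannot tell which start was used.

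Cbr2, a carbonyl reductase found at high level in mouse lung, was among the brightest probe sets of both lungs. It measured 11.45, 12.03 and 13.38 in Rb/p53/p130 tumours and ran from 10.05 through a median of 11.47 to 13.34 in Rb/p53 tumours, against 14.75 and 14.78 in lung, where it ranked 6 and 7 from the top. In the lungs it lay 0.45 and 0.41 below the brightest probe set, and whether the top of the scale held down these signals was not tested. No tumour reached either lung, and the closest was 1.37 below. In Rb/p53 tumours Cbr2 differed from lung by -2.98 ± 0.78 (7.88-fold lower, adjusted p = 0.00835 by limma). In Rb/p53/p130 tumours against lung it was -2.48 ± 0.92 (adjusted p = 0.0625). With 1 lung left out the Rb/p53 call was lost while the difference hardly moved, at -2.996 without normal lung 1 (limma adjusted p = 0.0728) and -2.96 without normal lung 2 (0.0731); with the Gapdh covariate it was -2.20 (0.594). The Rb/p53/p130 difference passed without Rb/p53 tumour 7 (adjusted p = 0.0405), Rb/p53 tumour 10 (0.0497) or Rb/p53/p130 tumour 13 (0.0414), all by limma.

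None of the antibacterial and mucus genes Bpifa1, Reg3g and Muc5b passed the test against lung with all arrays fitted. Bpifa1, a secreted lipid-binding protein of the airway lining fluid, was 6.95, 7.07 and 7.91 in Rb/p53/p130 tumours, and in Rb/p53 tumours it ran from 4.61 through a median of 6.41 to 11.81, against 10.07 and 12.10 in lung. Rb/p53 tumours 4, 9 and 10 held 11.48, 11.81 and 10.58 and stood at lung level, whereas 3 others lay under the floor of 5.05. All 3 Rb/p53/p130 tumours lay under both lungs. The limma differences were -3.78 ± 2.08 in Rb/p53/p130 tumours against lung (adjusted p = 0.216) and -3.62 ± 1.76 in Rb/p53 tumours against lung (adjusted p = 0.138). Fitted without the Rb/p53 tumours, the first of these passed (adjusted p = 0.00482).

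Reg3g, an antibacterial lectin, was 6.00, 5.47 and 7.23 in Rb/p53/p130 tumours and ran from 5.18 through a median of 5.60 to 10.86 in Rb/p53 tumours, against 6.28 and 9.94 in normal lung. Rb/p53 tumour 4 was highest, above both lungs, followed by tumours 8 and 1 at 8.44 and 8.41. The 2 lungs themselves differed by 3.66, more than for 99.9% of genes. The limma differences from lung were -1.88 ± 1.56 in Rb/p53/p130 tumours (adjusted p = 0.436) and -1.41 ± 1.32 in Rb/p53 tumours (adjusted p = 0.466).

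Muc5b, the gel-forming mucin of the airway, was 8.36, 8.12 and 9.95 in Rb/p53/p130 tumours and ran from 7.57 through a median of 8.38 to 9.67 in Rb/p53 tumours, against 8.81 and 10.30 in lung. The groups overlapped in both comparisons with lung. The differences were -0.74 ± 0.68 (limma adjusted p = 0.491) and -1.11 ± 0.58 (limma adjusted p = 0.170).

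The promoters of Bpifa1 and Reg3g are shown because these genes varied most between tumours. The windows, again of GRCm38.p6, are chr2:154142630-154142929 (plus strand) and chr6:78468825-78469124 (minus strand). Capitals mark TATAAA, the forkhead motif TGTTTAC or TATTTAC, and the NKX2 motif CAAGTG, each searched on both strands.
Bpifa1: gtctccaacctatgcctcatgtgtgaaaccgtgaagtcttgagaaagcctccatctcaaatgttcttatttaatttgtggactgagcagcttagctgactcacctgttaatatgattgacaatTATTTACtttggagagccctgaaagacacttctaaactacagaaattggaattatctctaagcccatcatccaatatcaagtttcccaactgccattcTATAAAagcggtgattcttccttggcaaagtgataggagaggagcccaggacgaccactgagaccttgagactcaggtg
Reg3g: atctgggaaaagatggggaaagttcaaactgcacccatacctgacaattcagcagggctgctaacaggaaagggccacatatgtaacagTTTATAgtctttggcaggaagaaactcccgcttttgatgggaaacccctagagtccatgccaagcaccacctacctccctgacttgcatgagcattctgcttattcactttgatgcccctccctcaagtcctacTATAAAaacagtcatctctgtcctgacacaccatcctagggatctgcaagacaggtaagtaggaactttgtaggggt
TATAAA begins at position -29 from the start of Bpifa1 and at -27 from that of Reg3g, and the second match of Reg3g, at -161, lies on the other strand. Bpifa1 also holds 1 forkhead match, at -127. Among 32851 mouse promoter windows of this length, 13.6% hold TATAAA, 6.54% the forkhead motif and 13.6% CAAGTG. The matches overlap no other motif searched, and they are letters in a window, not sites shown to be bound. Windows were found for 6 of the 9 genes; Scgb1a1, Scgb3a2 and Muc5b are named only.

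**Figure D3:**
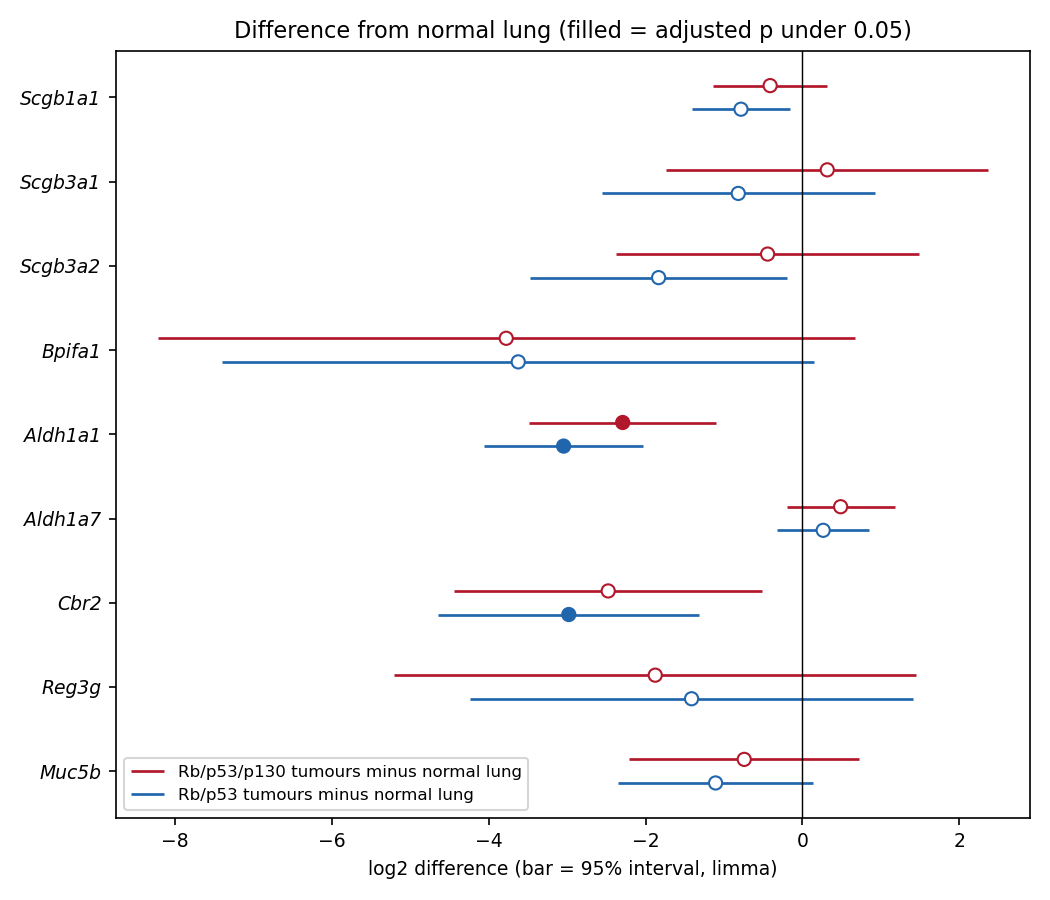
Log2 difference from normal lung for each of the 9 genes (horizontal axis), with 95% intervals from limma, for Rb/p53/p130 tumours (red, above) and Rb/p53 tumours (blue, below); filled points have an adjusted p under 0.05. Aldh1a1 is filled in both genotypes and Cbr2 in Rb/p53 tumours.

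Counted together, 1 of the 9 genes, Aldh1a1, was called lower in Rb/p53/p130 tumours against lung and 0 higher, where 15.6% of the 18193 genes were called lower and 15.3% higher. In Rb/p53 tumours against lung 2 of 9, Aldh1a1 and Cbr2, were called lower and 0 higher, where 20.5% of genes were called lower and 18.3% higher. Both shares are near these backgrounds. The arrays of tumour and lung did not overlap for 5 genes that were lower and for 1, Aldh1a7, that was higher in Rb/p53/p130 tumours, against backgrounds of 33.2% and 32.8%. In Rb/p53 tumours they did not overlap for 4 genes, all lower (Scgb1a1, Scgb3a2, Aldh1a1 and Cbr2), against 20.2%. The median difference over the 9 genes was -0.74 in Rb/p53/p130 tumours and -1.41 in Rb/p53 tumours, beside -0.02 over all genes in each. Both comparisons use the same 2 lungs.

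Between tumour genotypes none of the 9 genes was called by limma, 0 had an unadjusted p under 0.05 and 0 passed by the exact permutation test (lowest p 0.0839), where 0.0715% of genes were called in either direction. Over all genes 7.26% had an unadjusted limma p under 0.05 and 8.11% an exact permutation p under 0.05. Counts of 0 of 9 lie near these shares. No gene's arrays separated the genotypes, where 1.1% of genes were separated as higher and 0.868% as lower in Rb/p53/p130 tumours. The 95% intervals were widest for Bpifa1, at -0.15 (-3.36 to 3.05), and narrowest for Aldh1a7, at 0.22 (-0.27 to 0.72). That of Scgb3a2 ran from -0.0055 to 2.78. Aldh1a1 stood 0.75 ± 0.40 higher in Rb/p53/p130 tumours (adjusted p = 0.573) and Scgb3a1 1.13 ± 0.69 higher (adjusted p = 0.643), neither past the test.

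Among the 10 Rb/p53 tumours each of the 9 genes had a higher standard deviation than the median gene, at 0.28. That of Bpifa1 was 2.84, above 99.97% of genes, and that of Reg3g 1.94. Scgb3a1, Scgb3a2 and Cbr2 followed with 1.29, 1.24 and 1.18. Leaving aside Scgb1a1 (0.43), which lay near the top of the scale, Aldh1a7 had the lowest value, 0.40. Rb/p53 tumour 10 was among the 3 highest for 7 of the 9 genes and Rb/p53 tumour 7 among the 3 lowest for 7, although tumour 10 was among the 3 lowest for Aldh1a7. The top of the order was held by tumours 6 and 10 for Scgb1a1, Scgb3a2 and Cbr2, by tumour 9 for Bpifa1, by tumour 4 for Reg3g and by tumour 1 for Muc5b.

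**Figure D4:**
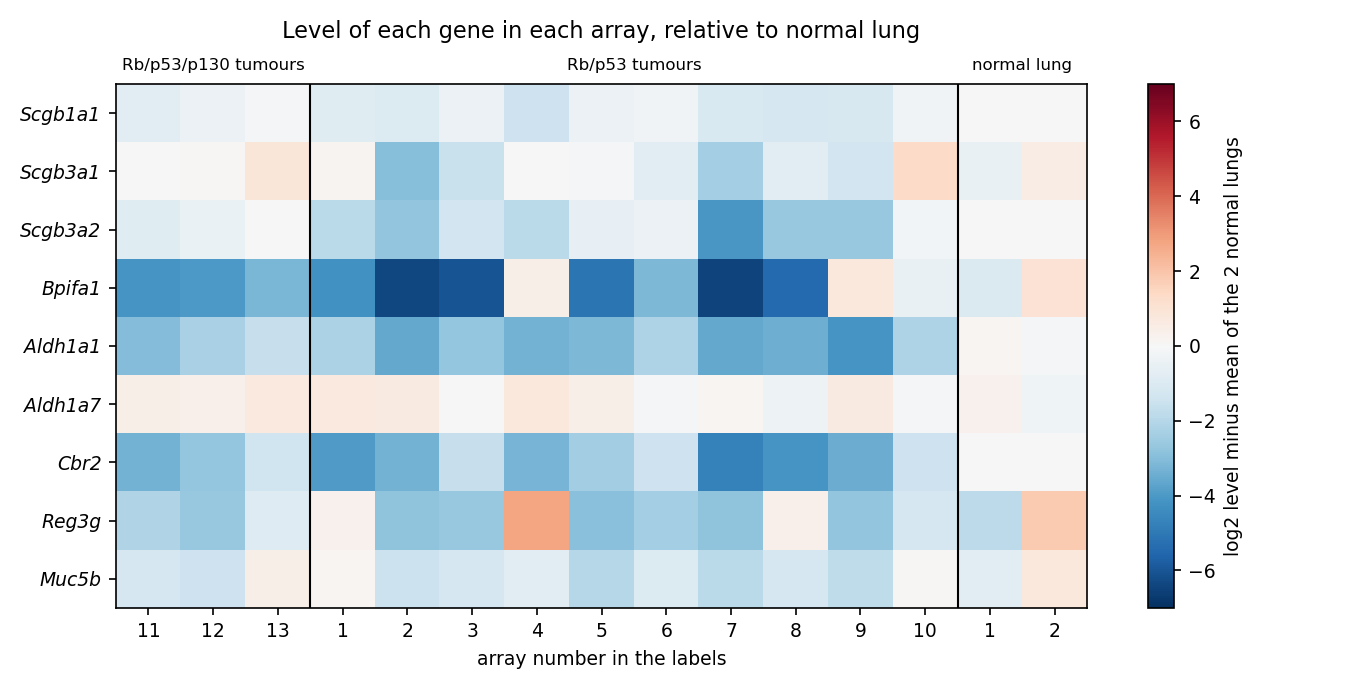
Log2 level of each gene in each array minus the mean of the 2 normal lungs (colour scale), with Rb/p53/p130 tumours 11 to 13, Rb/p53 tumours 1 to 10 and normal lungs 1 and 2 from left to right. Bpifa1 is pale in Rb/p53 tumours 4, 9 and 10, Reg3g is strongest in tumour 4, and Cbr2 and Aldh1a1 are blue in all 13 tumours.

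Of 36 pairs of these genes across the 10 Rb/p53 tumours, in a family of 81 correlations, 1 passed by both measures. Scgb3a2 and Cbr2 rose together (Pearson r = 0.888, permutation p = 0.00072, adjusted p = 0.0113; Spearman rho = 0.903, permutation p = 0.00073, adjusted p = 0.0296), and without tumours 7 and 10 r was 0.796. Scgb1a1 and Cbr2 gave r = 0.812 (permutation p = 0.00652, adjusted p = 0.0528) and rho = 0.721 (permutation p = 0.0243, adjusted p = 0.109). No correlation of Bpifa1 or Reg3g passed by either measure. Of 45 correlations with the means of 5 lists of other cells, 8 passed by r and 2 by both measures. Scgb1a1 rose with the alveolar type 2 list (r = 0.902) and the endothelial list (r = 0.892), each with a permutation adjusted p of 0.0159. Scgb3a2 rose with the endothelial list (r = 0.892, permutation adjusted p = 0.0113) and the alveolar type 2 list (r = 0.840, permutation adjusted p = 0.0272). These secretoglobin correlations passed by r but not by rho. Cbr2 rose with the endothelial list (r = 0.962, adjusted p = 0.00365; rho = 0.842, adjusted p = 0.0518, by permutation), the alveolar type 1 list (r = 0.928, adjusted p = 0.00540; rho = 0.855, adjusted p = 0.0518, by permutation) and the alveolar type 2 list (r = 0.947, permutation p = 9e-05, adjusted p = 0.00365; rho = 0.879, permutation p = 0.00165, adjusted p = 0.0446), and without tumours 6 and 10 r was 0.923. Aldh1a1 rose with the ciliated list (r = 0.892, permutation p = 0.00069, adjusted p = 0.0113; rho = 0.927, permutation p = 0.00032, adjusted p = 0.0259). That r was 0.862 without tumours 6 and 10, but 0.379 over the 13 tumours of both genotypes. The ciliated mean ran only from 6.60 to 7.38 in Rb/p53 tumours, against 9.82 to 10.39 in lung. Its genes Ccdc113 and Spag17 did not exceed the floor in 13 of 13 tumours. The part of these other cells in the levels was not tested.

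**Figure D5:**
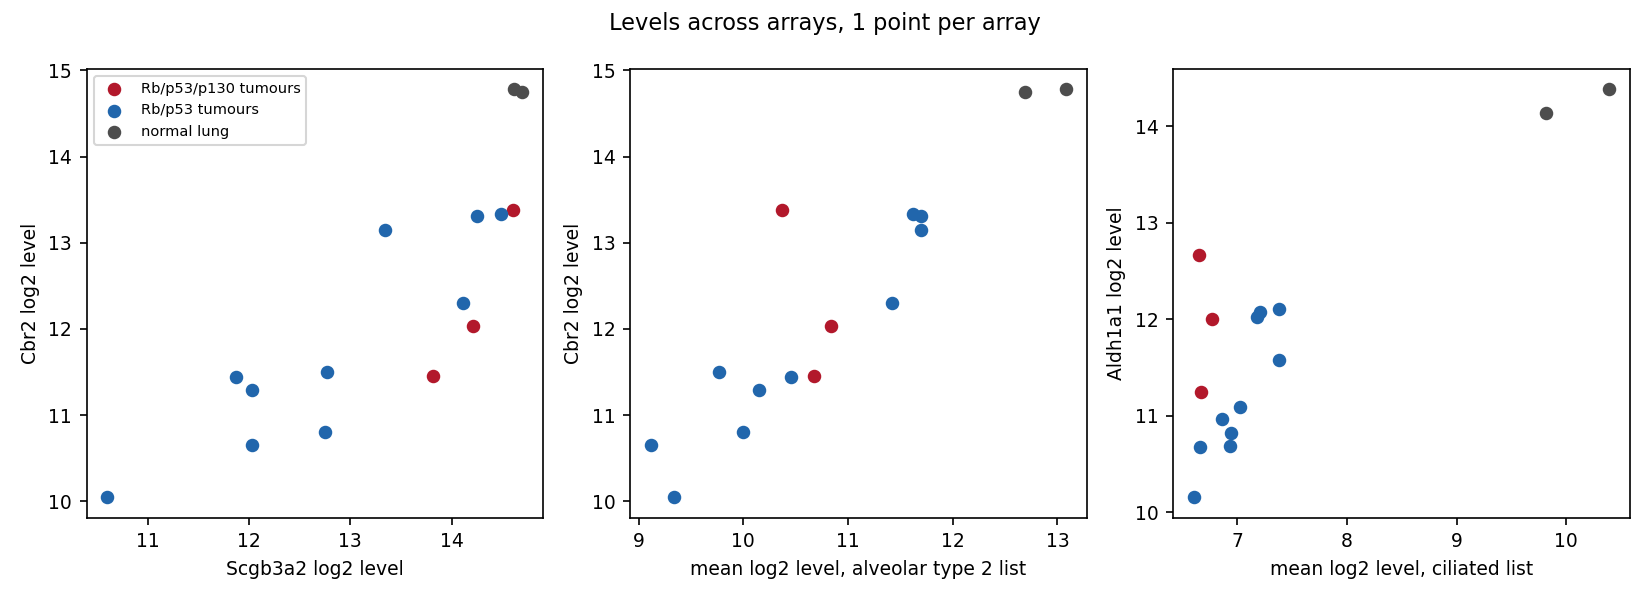
Log2 level of Cbr2 against Scgb3a2 (left), of Cbr2 against the mean of the alveolar type 2 list (middle) and of Aldh1a1 against the mean of the ciliated list (right), 1 point per array, coloured by group. Across the 10 Rb/p53 tumours r was 0.888, 0.947 and 0.892, and in the right panel the Rb/p53/p130 tumours lie at ciliated means of 6.65 to 6.77.

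By the highest r to each gene across these 10 tumours, as a description, the nearest of 18184 other genes were Ptprm (0.966), Mpp1 (0.964) and Fmo1 (0.951) for Scgb1a1, and Prelp (0.985), Tspan9 (0.974) and Cdkn2b (0.971) for Scgb3a2. For Cbr2 they were Il17re (0.984), Lamb3 (0.977) and Emp1 (0.974), and for Aldh1a1 Tspo (0.953), Phyh (0.951) and Jade2 (0.929). The other members had lower top values. These were 0.931 for Muc5b (Drc3), 0.929 for Reg3g (Med25) and 0.924 for Aldh1a7 (Sec24a). For Bpifa1 the top value was 0.921 (Nsmce3) and for Scgb3a1 0.882 (Abi3). Each is the highest r of a search over 18184 genes in 10 tumours, so it is high by selection.

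The other club cell genes are given by list. Of 24 measured genes of club cell metabolism, 14 were lower and 1 higher in Rb/p53/p130 tumours against lung, and 19 lower and 1 higher in Rb/p53 tumours against lung, with median differences of -2.86 and -3.49. Over all genes 15.6% were lower and 15.3% higher in Rb/p53/p130 tumours, and 20.5% lower and 18.3% higher in Rb/p53 tumours. Sult1d1, a sulfotransferase, averaged 5.67 ± 0.79 in Rb/p53/p130 tumours and 4.88 ± 0.80 in Rb/p53 tumours, against 10.82 ± 0.62 in lung (SD, n = 3, 10 and 2). It was 35.7-fold lower in Rb/p53/p130 tumours, of which 1 of 3 did not exceed the floor, and at least 47.7-fold lower in Rb/p53 tumours, of which 8 of 10 did not (limma adjusted p = 3.79e-05 and 1.31e-06). Ces1f, a carboxylesterase, was at least 19.6-fold lower in Rb/p53/p130 tumours and 23.8-fold lower in Rb/p53 tumours. Cyp2b10 differed from lung by -5.19 ± 0.84 in Rb/p53/p130 tumours, and Aox3, an aldehyde oxidase, by -4.83 ± 0.61 in Rb/p53 tumours, by limma (adjusted p = 0.000322 and 2.44e-05). Of the genes named after their values were seen, Cyp4b1 differed by -3.73 ± 0.85 in Rb/p53/p130 tumours and -4.61 ± 0.72 in Rb/p53 tumours. With the Gapdh covariate, limma no longer called Sult1d1 in Rb/p53/p130 tumours (-5.02 ± 1.48, adjusted p = 0.0851), Cyp2b10 (-3.56, 0.347) or Aox3 (-3.61, 0.201). That Sult1d1 difference was -5.16 ± 0.65 without the covariate. Nor was Cyp4b1 called with it, at -2.46 in Rb/p53/p130 tumours (limma adjusted p = 0.560) and -3.41 in Rb/p53 tumours (0.322). Cyp2f2, the classic club cell oxidase, differed by -2.90 ± 1.13 (limma adjusted p = 0.0755) and -3.85 ± 0.96 (limma adjusted p = 0.00603). The Rb/p53 call of Cyp2f2 was lost without normal lung 1 or 2, although the difference stayed at -3.84 and -3.87 (adjusted p = 0.0616 and 0.0576), and with the Gapdh covariate (-3.98, adjusted p = 0.402). Its Rb/p53/p130 difference passed without Rb/p53 tumour 10 (0.0436) or Rb/p53/p130 tumour 13 (0.0483), and in the fit of the compared groups only (0.0156), all by limma.

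Aldh1a3, the retinaldehyde dehydrogenase of several other epithelia, went the other way. It averaged 10.68 ± 0.22 in Rb/p53/p130 tumours and 9.47 ± 2.00 in Rb/p53 tumours, against 5.12 ± 0.27 in normal lung (SD, n = 3, 10 and 2). In 1 of 10 Rb/p53 tumours and 1 of 2 lungs it did not exceed the floor, so these differences are measured from a level close to background. It was 5.56 ± 1.44 and 4.36 ± 1.22 higher in Rb/p53/p130 and Rb/p53 tumours (limma adjusted p = 0.0104 and 0.0129). Both calls were lost with 1 lung left out, at 5.37 and 4.16 without normal lung 1 (limma adjusted p = 0.0759 and 0.113) and 5.75 and 4.55 without normal lung 2 (0.0516 and 0.0796). They were also lost with the Gapdh covariate, at 10.44 and 9.00 (0.0679 and 0.0816).

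Of 28 genes of mucus and airway defence, 6 were lower and 1 higher in Rb/p53/p130 tumours, and 12 lower and 1 higher in Rb/p53 tumours, against lung; the first share of lower genes is near the 15.6% of all genes, and 20.5% of all genes were lower in Rb/p53 tumours. Galnt12, which starts O-linked sugar chains, was the gene that rose in both, by 2.48 ± 0.28 and 2.33 ± 0.24 (limma adjusted p = 1.27e-05 and 3.19e-06). Muc16, a membrane mucin, was at least 6.71-fold lower in Rb/p53/p130 tumours and 6.49-fold lower in Rb/p53 tumours. Clca1 was called lower in both, but it did not exceed the floor in 3 of 3 Rb/p53/p130 tumours, 9 of 10 Rb/p53 tumours and 1 of 2 lungs, and without normal lung 2 the differences were -0.24 and -0.04 (limma adjusted p = 0.819 and 0.967), and the Rb/p53/p130 call was also lost without tumour 11, 12 or 13 (0.0895, 0.0849 and 0.0719). Of 16 other club cell markers, 5 were lower in Rb/p53/p130 tumours and 10 in Rb/p53 tumours, and 0 higher. Sec14l3, a lipid-binding protein of airway cells, differed by -4.46 ± 0.86 and -3.99 ± 0.73 (adjusted p = 0.00137 and 0.00064 by limma), and with the Gapdh covariate by -2.67 and -2.29 (adjusted p = 0.516 and 0.529 by limma).

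Over these 3 lists, 25 of 68 measured genes were lower and 2 higher in Rb/p53/p130 tumours, and 41 lower and 2 higher in Rb/p53 tumours, against normal lung, where 15.6% and 20.5% of all genes were lower. Without normal lung 2 the lower count in Rb/p53 tumours was 27, and with the Gapdh covariate it was 2 in Rb/p53/p130 tumours and 3 in Rb/p53 tumours. Lower calls over all probe sets fell in these fits too. In Rb/p53 tumours they went from 7248 to 4932 without normal lung 2 and to 951 with the covariate. In Rb/p53/p130 tumours the covariate took them from 5737 to 794. Between genotypes 0 of 68 genes were called by limma, 7 had an unadjusted p under 0.05, where 7.26% of all genes did, and 2 had an exact permutation p under 0.05, where 8.11% did. Markers of other lung cells moved with them: 7 of 15 alveolar type 2 genes were lower in Rb/p53/p130 tumours and 10 in Rb/p53 tumours, of alveolar type 1 genes 11 and 14 of 14, of ciliated genes 16 and 16 of 18, and of endothelial genes 13 and 13 of 14, and their part in the levels of the 9 genes was not tested.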

How the data were processed

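Per the labels' protocols, total RNA was amplified in 2 rounds and hybridised to Affymetrix mouse arrays. Levels in the deposited table are log2 values from RMA (version not stated), per the submitters' processing notes; RMA sets arrays to nearly equal distributions, and amplification shortens transcripts towards the 3' end. Values ran from 3.11 to 15.2 and no 2 arrays were identical. Of 45101 probe sets, 64 controls were left out. Probe sets with 1 symbol (34945) gave 18193 genes, each read from the probe set with the highest mean. Groups came from the labels.

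Differences were tested with limma 3.58.1 under R 4.3.3, in 1 linear model of the 3 groups with moderated variances. P-values from 45037 probe sets were corrected together by Benjamini-Hochberg, with 0.05 as the threshold. Differences carry SE and levels SD. A fit on simulated data was tested first. Bounds on folds use a floor of 5.05, the highest lower quartile of any array. Correlations used 100000 permutations; exact permutation tests were two-sided. Promoters came from RefSeq tables. The number of arrays limits precision. The 9 genes and the lists were chosen with earlier results of these data known. Named genes were the 9, up to 4 called genes with the highest change from each list and comparison, and the 3 nearest genes by r; Cyp2f2, Cyp4b1, and the Rb/p53 values of Aldh1a3 and Galnt12 were added after their values were seen. Alternatives were each array left out, quantile renormalisation, median centring, brighter probe sets only, compared groups only, another variance prior, a Gapdh covariate and the array number as a block.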

Additional observations from a re-analysis of the deposited data

Results flagged for a closer look

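Of 59 genes examined for an array standing apart within the 10 Rb/p53 tumours (the 9 genes and 50 named genes of the lists), 2 had one, which is 3.39%. At the 95% critical value, chance marks about 1 in 20 such groups. Clca1, a regulator of mucus secretion, was 5.64 in Rb/p53 tumour 4, against 4.66 in the next highest tumour, and 9 of the 10 tumours did not exceed the floor of 5.05; its gap was 0.555 of the group's range where 0.466 is the 95% critical value. Sult1d1, a sulfotransferase, was 6.78 in the same tumour, against 5.32 in the next, a gap of 0.512 of the range; 8 of the 10 tumours did not exceed the floor. Rb/p53 tumour 4 was also the tumour with the highest Reg3g and one of 3 with Bpifa1 at lung level; this was read after the values were seen, and no cause was tested.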

How the results depend on the processing

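Quantile renormalisation kept the sign and the side of the threshold of the 27 differences of the 9 genes. The largest move, 0.21, was that of Scgb1a1 in Rb/p53 tumours against lung, which stayed uncalled. No called difference of the 9 genes changed sign. Of the others, leaving out 1 array moved Scgb3a1 in Rb/p53/p130 tumours against lung over -0.23 to 0.86 (below 0 without normal lung 1), Muc5b there over -1.49 to 0.0036, and in Rb/p53 tumours against lung Aldh1a7 over -0.010 to 0.54 and Reg3g over -3.24 to 0.42 (signs turned without normal lung 2). Between genotypes Bpifa1 ran from -0.47 to 0.33 (above 0 without Rb/p53 tumour 4, at 0.29, 9, 10, at 0.19, or Rb/p53/p130 tumour 11, at 0.026), Cbr2 from -0.043 to 0.92 and Muc5b from -0.21 to 0.71 (both below 0 without Rb/p53/p130 tumour 13). With the Gapdh covariate Scgb3a1 in Rb/p53/p130 tumours was -1.70. With 1 array left out the called probe sets ran from 6903 to 12009 in Rb/p53/p130 tumours against lung, from 8990 to 14813 in Rb/p53 tumours against lung and from 17 to 172 between genotypes, where the full fit gave 11287, 14464 and 95. With the Gapdh covariate they were 1662, 1989 and 151, and among brighter probe sets the genotypes differed in 61. Scgb1a1 in Rb/p53 tumours passed with median centring (-0.84, adjusted p = 0.0330), among brighter probe sets (0.0393) and with a trended, robust prior (0.0445), all by limma. Cbr2 in Rb/p53/p130 tumours passed among brighter probe sets (0.0422) and in the fit of those 2 groups alone (0.0139). The labels do not say that array numbers pair samples, and the deviations of lung 1 and tumour 1 correlated at -0.004 and of lung 2 and tumour 2 at -0.055. With the replicate block, which rests on these 4 arrays, 7440 probe sets were called in Rb/p53 tumours, and Scgb3a2 (-2.35, adjusted p = 0.0107) and Bpifa1 (-5.30, adjusted p = 0.0330) passed; contrasts with Rb/p53/p130 tumours could not be fitted. A mean over probe sets was not run, as each gene has 1. Other causes were not tested.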
